A study of Mus musculus with 2 samples.

Results

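The serotonin receptor genes Htr1a, Htr1b, Htr2a, Htr2c, Htr4 and Htr5b were followed across single cells of the mouse habenula. They were chosen by name and are 6 of the 28692 genes listed in both libraries. They were read in medial and lateral habenula subtypes and in other neurons. The 8 further serotonin receptor genes of the annotation are given beside them for comparison.

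The habenula is a small epithalamic structure with a medial part (MHb), which sends its axons mainly to the interpeduncular nucleus, and a lateral part (LHb), which reaches midbrain monoamine centres that include the serotonergic raphe and itself receives serotonergic fibres. Apart from the Htr3 genes, which encode subunits of an ion channel, serotonin receptors couple to G proteins. Those of the Htr1 and Htr5 families act mainly through Gi/o and lower neuronal excitability, those of the Htr2 family act through Gq and phospholipase C, and those encoded by Htr4, Htr6 and Htr7 act through Gs and adenylyl cyclase. Htr2c transcripts are also known for RNA editing and alternative splicing in the brain, which counts of transcript 3' ends do not show.

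Both libraries were made from C57BL/6 males aged 50 to 55 days, and habenula punches from 4 mice were pooled in each. The foot shock mice received 30 shocks of 0.3 mA and 1 s within 60 min, after 7 days with 10 min per day in the shock chamber, and were killed directly after the session. Control mice came straight from the home cage. Mice of both groups were handled for 5 min per day over 7 days, and the tissue of both was perfused and cut in a solution that held tetrodotoxin, glutamate receptor blockers, actinomycin and anisomycin, digested with pronase and cleared of dead cells. With 1 library in each group there was no replicate, so no test could be made. Every interval below is a 95% interval for counting error alone, and a difference between the libraries is not one between the conditions.

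The genes lie on different chromosomes of the mm10 build. Htr2c spans chrX:146962513-147197277 on the plus strand and hosts several small RNA genes, none of them counted in the matrices. Htr2a lies at chr14:74640840-74709494 and Htr1a at chr13:105443639-105448122, both on the plus strand. Htr1b lies at chr9:81628291-81633828 on the minus strand, opposite the counted gene D430036J16Rik. The strand used in counting was not stated in the labels, so reads of these opposed genes may not be told apart. Htr5b lies at chr1:121509842-121528465 on the minus strand, and the place of Htr4 is given with its levels.

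Promoter sequences are shown for Htr2c and Htr1b, the members with the largest LHb over MHb ratios below. They run 5' to 3' on the gene's strand from 250 bases before to 50 bases after the start, are taken from RefSeq on build GRCm38.p6, and lie at chrX:146962263-146962562 and chr9:81633783-81634082. Capitals mark the CCAAT box, which both carry in reverse as ATTGG, Htr2c at a single place and Htr1b at a pair of places.
Htr2c: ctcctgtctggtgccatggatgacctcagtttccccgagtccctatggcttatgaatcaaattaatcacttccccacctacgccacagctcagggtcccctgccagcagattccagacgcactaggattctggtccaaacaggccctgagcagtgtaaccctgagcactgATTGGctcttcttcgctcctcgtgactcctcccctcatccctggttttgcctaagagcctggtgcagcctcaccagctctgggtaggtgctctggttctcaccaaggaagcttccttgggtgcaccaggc
Htr1b: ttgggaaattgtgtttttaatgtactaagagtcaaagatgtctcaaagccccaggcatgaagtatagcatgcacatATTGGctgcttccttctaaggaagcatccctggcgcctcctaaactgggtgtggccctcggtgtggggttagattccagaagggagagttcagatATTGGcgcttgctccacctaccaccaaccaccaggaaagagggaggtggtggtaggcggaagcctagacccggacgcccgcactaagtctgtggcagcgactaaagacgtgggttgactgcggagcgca
Motifs were searched by their letters on both strands. The CCAAT box was held by 37.4% of the 32851 promoters of the same length, the GC box GGGCGG by 35.7%, the TATA box TATAAA by 13.6% and the octamer ATGCAAAT, bound by POU-domain factors, by 1.74%. The Htr2c and Htr1b windows held none of the last 3 motifs, and the Htr1a and Htr2a windows each held 1 GC box and none of the others. The Htr2c window had 5 CG dinucleotides and that of Htr1b 11, against a median of 7 over all promoters. These matches describe letters and not bound sites.

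The foot shock library held 22189951 transcripts counted by unique molecular identifiers (UMIs) and the control library 23095501. Clusters were named from markers that include no serotonin receptor, and 0 receptor genes were among the features used for clustering. The foot shock library gave 843 LHb-like, 1619 MHb-like, 58 thalamus-like and 215 other neurons. The control library gave 955 LHb-like, 1214 MHb-like, 130 thalamus-like and 300 other neurons. The median LHb-like cell had 3632 UMIs in foot shock and 4326 in control, and the median MHb-like cell 3463 in foot shock and 4224.5 in control. Pou4f1, a transcription factor of habenula neurons, is given in CPM, the UMIs of the gene per 1000000 UMIs of the summed cells. It stood at 446 CPM in foot shock and 502 CPM in control LHb-like neurons, at 585 CPM in foot shock and 717 CPM in control MHb-like neurons, and at no more than 20.2 CPM in the other neuronal classes. In foot shock the 11 LHb markers summed to 2964 CPM in LHb-like and 670 CPM in MHb-like neurons, and the 13 MHb markers to 2463 CPM in LHb-like and 7580 CPM in MHb-like neurons. In control the LHb markers summed to 2810 CPM in LHb-like and 617 CPM in MHb-like neurons, and the MHb markers to 1805 CPM in LHb-like and 7124 CPM in MHb-like neurons. The LHb markers did not set LHb-like neurons far apart from the remaining neuronal classes. They summed to 2418 CPM in foot shock and 2171 CPM in control thalamus-like neurons. In other neurons they summed to 2290 CPM in foot shock and 2440 CPM in control. Clusters of other neurons, apart from the Pdyn and Wnt4 cluster, had first been LHb-like and were moved by their Pou4f1 level. Markers of serotonin neurons were nearly absent, with Slc6a4 at 0 CPM and Tph2 and Fev at or below 0.397 CPM in every neuronal class. The libraries also differed in other cells: 503 epithelial-like cells were found in foot shock and 0 in control, none of them with a UMI of the 6 receptors. A further 45 fibroblast-like cells were found in foot shock and 0 in control. Xist was among the leading genes of these fibroblast-like cells although the mice were males, and their source was not tested. The receptors' levels in free RNA, read from barcodes with 10 to 100 UMIs, are printed for comparison. They are no floor for a class, since free RNA was estimated from myelin genes to make up 5.39% of foot shock and 3.78% of control LHb-like UMIs, and 4.92% of foot shock and 3.20% of control MHb-like UMIs.

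Each receptor had its own place in the neurons. Htr2c marked LHb-like, thalamus-like and other neurons, Htr5b was highest in MHb-like neurons, Htr4 was low and highest in one MHb-like cluster, and Htr1b was highest in clusters with little Pou4f1. Htr1a and Htr2a were close to absent. Neurons held 93.5% of the Htr2c UMIs of kept foot shock cells and 98.4% of those of control cells, and 96.2% of foot shock and 98.6% of control Htr5b UMIs.

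**Figure D1:**
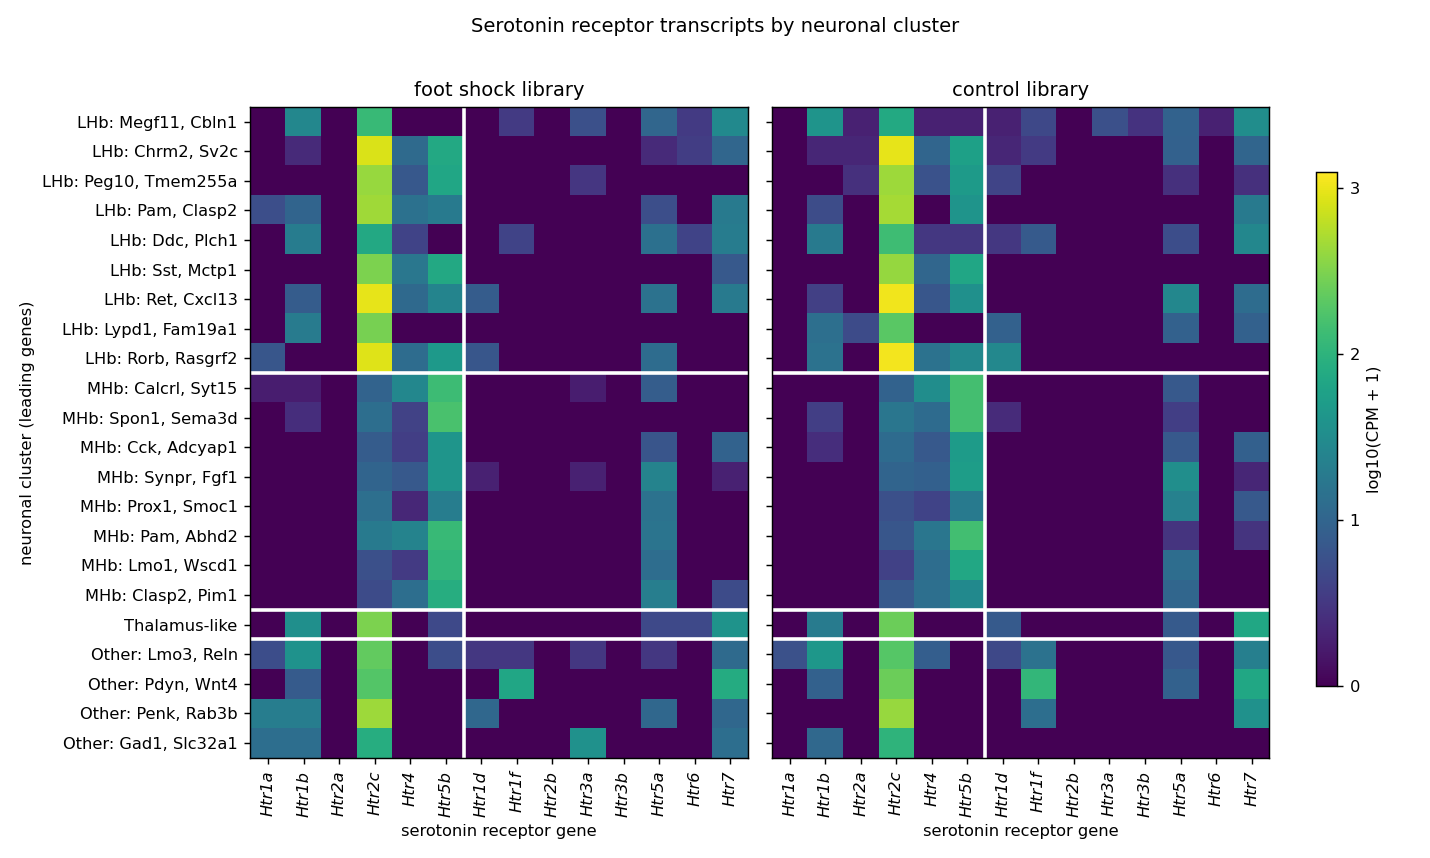
Level of 14 serotonin receptor genes, as log10(CPM + 1), in neuronal clusters (rows, named by leading genes) of the foot shock library on the left and the control library on the right. The 6 receptors followed here stand left of the vertical line. Horizontal lines part LHb-like, MHb-like, thalamus-like and other neurons. Htr2c is bright in LHb-like rows and dark in MHb-like rows of both libraries, and the Htr5b column is brightest in MHb-like rows.

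Htr2c, the Gq-coupled 2C receptor, reached 507 CPM (482 to 532) among foot shock LHb-like neurons, from 1582 UMIs. In MHb-like neurons from the same mice it stood at 9.48 CPM (7.10 to 12.4), from 53 UMIs. The control library gave 483 CPM (462 to 504) in LHb-like neurons, from 2007 UMIs, and 8.73 CPM (6.34 to 11.7) in MHb-like neurons, from 44 UMIs. LHb-like neurons were thus far above MHb-like neurons in both libraries, at a ratio of 53.5 (40.7 to 71.7) in foot shock and 55.3 (41.1 to 76.4) in control. Free RNA had 71.5 CPM in foot shock and 57.4 CPM in control, and with it subtracted the ratio was 84.8 in foot shock and 70.2 in control. When only cells with a Pou4f1 UMI were taken and classed by their marker genes, the ratio was 6.04 in foot shock and 6.37 in control, still above 1. With predicted doublets kept it was 29.5 in control.

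Of the 6 receptors, 4 had at least 20 UMIs over LHb-like and MHb-like neurons, the minimum for a ratio to be read. Htr2c and Htr1b were at least 2-fold higher in LHb-like neurons in both libraries, as were 11.6% of 11752 genes tested in foot shock and 12.5% of 11946 in control. Htr5b was at least 2-fold lower in both and Htr4 in control only, as were 6.46% of all genes in foot shock and 6.7% in control. The foot shock ratio of Htr5b was close to the limit and short of it under several of the alternatives given with its levels.

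Levels of Htr2c differed widely among the LHb-like clusters. The cluster led by Ret and Cxcl13 had 978 CPM (868 to 1099) in foot shock and 1089 CPM (982 to 1205) in control, the highest level of the 17 clusters with at least 50 cells in each library. The cluster led by Chrm2, which encodes a muscarinic receptor, and Sv2c followed with 842 CPM in foot shock and 957 CPM in control. The intervals of these top clusters overlapped each other and no interval of a lower cluster, in both libraries. The Pam and Clasp2 cluster came next with 460 CPM in foot shock and 485 CPM in control, and the Peg10 and Tmem255a cluster with 416 CPM in foot shock and 442 CPM in control, again overlapping. The Lypd1 and Fam19a1 cluster had 289 CPM in foot shock and 202 CPM in control. At the low end of the LHb-like class stood the Megf11 and Cbln1 cluster with 120 CPM (89.6 to 158) in foot shock and 76.3 CPM (60.7 to 94.7) in control, and the cluster led by Ddc and Plch1 with 73.7 CPM (46.7 to 111) in foot shock and 134 CPM (103 to 172) in control. These low clusters changed places between the libraries. From lowest to highest the LHb-like clusters spanned 13.3-fold in foot shock and 14.3-fold in control. A pair of smaller LHb-like clusters had too few cells for that order. Their levels were 881 CPM in foot shock and 1095 CPM in control in the Rorb and Rasgrf2 cluster, and 311 CPM in foot shock and 405 CPM in control in the Sst and Mctp1 cluster.

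**Figure D2:**
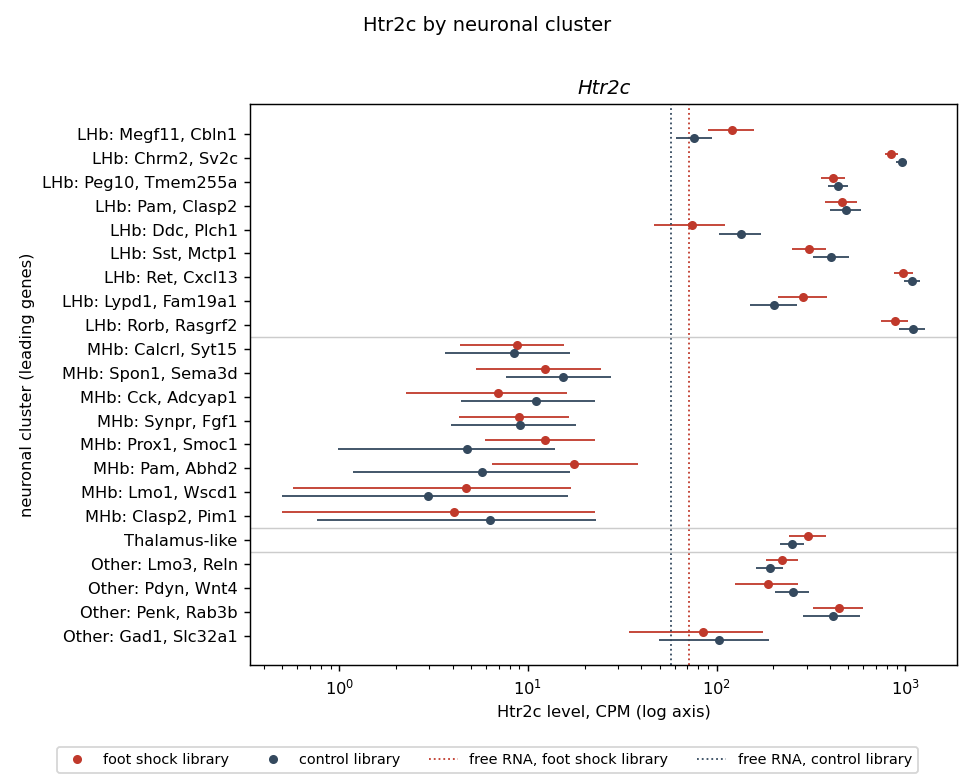
Htr2c level in CPM (log axis) in each neuronal cluster, with exact 95% Poisson intervals as horizontal lines, foot shock in red above control in dark blue-grey. Dotted vertical lines give the level in free RNA of each library. A further MHb-like cluster, led by Slc18a3 and Robo3, had 24 foot shock and 44 control cells and no Htr2c UMI and is not drawn. LHb-like clusters lie between 73.7 and 1095 CPM and MHb-like clusters between 2.95 and 17.6 CPM.

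Outside the habenula classes Htr2c was present at intermediate levels. Thalamus-like neurons had 306 CPM (243 to 380) in foot shock and 251 CPM (217 to 289) in control, and other neurons 231 CPM (198 to 267) in foot shock and 216 CPM (192 to 242) in control. Other neurons thus stood at 0.455 times (0.388 to 0.531) the LHb-like level in foot shock and at 0.447 times (0.394 to 0.505) in control, past 2-fold lower, as were 7.49% of 10657 genes tested in foot shock and 5.5% of 11342 in control. Among other neurons the cluster led by the opioid peptide gene Penk and Rab3b had 447 CPM in foot shock and 414 CPM in control, the Pdyn and Wnt4 cluster 188 CPM in foot shock and 254 CPM in control, the Lmo3 and Reln cluster 223 CPM in foot shock and 192 CPM in control, and the GABAergic cluster with Gad1 and Slc32a1 85.1 CPM in foot shock and 103 CPM in control. The Penk and Rab3b cluster rests on 37 cells in foot shock and 27 in control, and the Pdyn and Wnt4 cluster on 33 and 75. The GABAergic cluster rests on 26 cells in foot shock and 22 cells in control.

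At least 1 Htr2c UMI was found in 56.2% (52.8 to 59.6) of foot shock and 52.3% (49.0 to 55.5) of control LHb-like cells, and in 2.72% of foot shock and 2.97% of control MHb-like cells. Thalamus-like cells had shares of 62.1% in foot shock and 54.6% in control, above those of LHb-like cells although their level in CPM was lower, so no order was read from the shares. Oligodendrocyte-like cells, which should lack the receptor, gave 2.36% in foot shock at a median of 1855 UMIs and 0.737% in control at a median of 2068 UMIs, the foot shock share being close to that of MHb-like cells. Thinned to 1000 UMIs per cell, the shares were 33.0% of foot shock and 30.4% of control LHb-like cells, 0.804% of foot shock and 0.882% of control MHb-like cells, and 1.34% of foot shock and 0.329% of control oligodendrocyte-like cells. The thinned share in MHb-like cells lay below that of oligodendrocyte-like cells in foot shock and above it in control. Cells with 5 or more Htr2c UMIs made up 45.8% of foot shock and 58.6% of control cells in the Ret and Cxcl13 cluster, and 35.2% of foot shock and 38.7% of control cells in the Chrm2 and Sv2c cluster. In MHb-like neurons they made up 0% in both libraries, with a maximum of 3 UMIs in a cell. The highest count in an LHb-like cell was 20 UMIs in foot shock and 22 in control.

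Htr2a, the other Gq-coupled member, was hardly seen. The foot shock library had 0 UMIs in kept cells and the control library 5, of which 4 lay in LHb-like neurons and 1 in endothelial-like cells. With a count of 0 set to a floor of 3 cells, the upper limit of the share with a UMI was 0.356% of the 843 foot shock LHb-like cells. This limit was 0.185% of the 1619 foot shock MHb-like cells, and neither value is an observed share or an exact interval. Levels of Htr2a therefore could not be compared between classes or libraries at this depth.

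Htr1b, the Gi/o-coupled 1B receptor that acts on many axon terminals, was low and uneven. LHb-like neurons had 8.01 CPM (5.18 to 11.8) in foot shock, from 25 UMIs, and 14.0 CPM (10.6 to 18) in control, from 58 UMIs. MHb-like neurons had 0.358 CPM from 2 UMIs in foot shock and 0.595 CPM from 3 UMIs in control, while free RNA had 2.33 CPM in foot shock and 3.05 CPM in control. The ratio of LHb-like to MHb-like neurons was 22.4 (5.58 to 195) in foot shock and 23.4 (7.63 to 117) in control, both wide at these few MHb-like UMIs. The ratio was 12.1 in foot shock and 7.69 in control without the LHb-like clusters under a Pou4f1 minimum of 2 per 10000 UMIs, 14.2 in foot shock and 9.63 in control at cluster resolution 2.0, and 8.24 in control with classes from marker genes per cell. Thalamus-like neurons had 34.0 CPM (15.5 to 64.5) in foot shock and 18.2 CPM (9.97 to 30.6) in control. Other neurons had 26.5 CPM (16.4 to 40.5) in foot shock and 28.7 CPM (20.4 to 39.2) in control, which is 3.31 times (1.76 to 6.15) the LHb-like level in foot shock and 2.06 times (1.33 to 3.14) in control. This was past 2-fold higher, as were 4.93% of all genes tested in foot shock and 4.96% in control.

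The Htr1b UMIs of LHb-like neurons came mainly from the Megf11 and Cbln1, Ddc and Plch1, and Lypd1 and Fam19a1 clusters. The highest of the 17 neuronal clusters in both libraries was the Lmo3 and Reln cluster of other neurons. It had 36.9 CPM (21.5 to 59.0) in foot shock and 43.3 CPM (30.1 to 60.2) in control, from 17 UMIs in foot shock and 35 UMIs in control. The Megf11 and Cbln1 cluster, whose Pou4f1 level was just above the minimum for the LHb-like name at 1.15 per 10000 UMIs, had 26.0 CPM (13 to 46.5) in foot shock and 39.1 CPM (28.2 to 52.8) in control, the highest of the LHb-like clusters. Whether it belongs to the LHb is unsure at that level. It alone gave 11 of the 25 LHb-like Htr1b UMIs in foot shock and 42 of the 58 in control. The Ddc and Plch1 cluster had 19.2 CPM in foot shock and 17.3 CPM in control and the Lypd1 and Fam19a1 cluster 18.4 CPM in foot shock and 12.4 CPM in control. By contrast the Peg10 and Tmem255a and the Sst and Mctp1 clusters had 0 UMIs in both libraries, and the Chrm2 and Sv2c cluster had 1 UMI in each. No pair of neighbours in the order of the 17 clusters had intervals apart, so next neighbours could not be told apart. A Htr1b UMI was found in 2.49% of foot shock and 5.03% of control LHb-like cells, and in 1.02% of foot shock and 1.67% of control cells after thinning to 1000 UMIs. It was found in 0 of 847 foot shock and 0 of 1085 control oligodendrocyte-like cells, at the depths given above. Outside neurons, mural-like cells had 73.1 CPM (26.8 to 159) from 6 UMIs in 61 foot shock cells and 46.0 CPM (12.5 to 118) from 4 UMIs in 56 control cells, and oligodendrocyte-like cells had 0 UMIs.

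**Figure D3:**
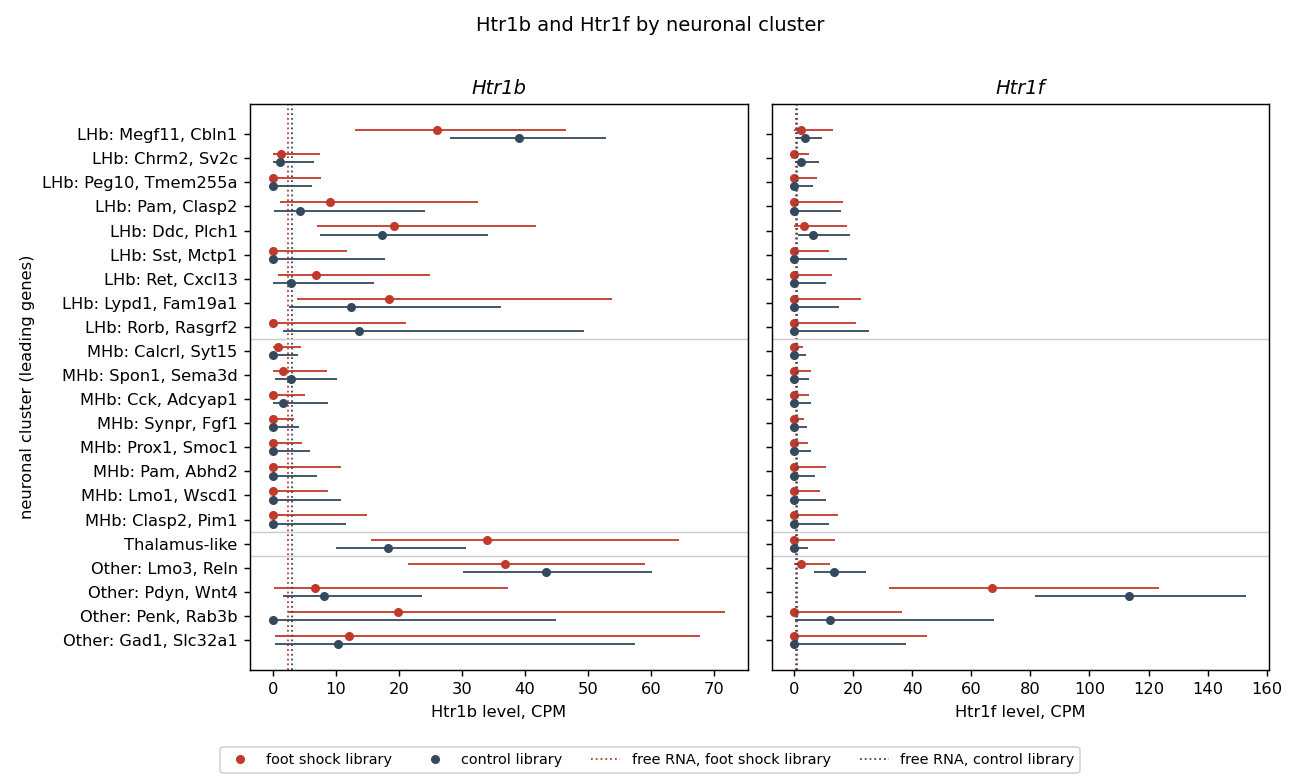
Htr1b on the left and its Gi/o-coupled relative Htr1f on the right, in CPM with exact 95% Poisson intervals, foot shock in red above control in dark blue-grey; dotted lines give free RNA. Htr1b lies mainly in 3 LHb-like clusters and in thalamus-like and other neurons and is near 0 in MHb-like clusters, while Htr1f peaks in the Pdyn and Wnt4 cluster at 67.1 CPM in foot shock and 113 CPM in control.

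Htr1a, the Gi/o-coupled 1A receptor that also serves as the autoreceptor of raphe neurons, had 8 UMIs in all kept foot shock cells and 7 in control cells. Other neurons held 5 of the foot shock UMIs and 4 of the control UMIs, at 6.30 CPM (2.05 to 14.7) in foot shock and 2.94 CPM (0.802 to 7.54) in control. LHb-like neurons had 2 UMIs in foot shock and 0 in control, and MHb-like neurons had 1 in foot shock and 0 in control. Its levels were too low for a ratio to be read.

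Htr5b, a gene of the Htr5 family that is intact in mice and a pseudogene in humans, was highest in MHb-like neurons. LHb-like neurons had 41.0 CPM (34.2 to 48.8) in foot shock and 28.1 CPM (23.3 to 33.7) in control, from 128 UMIs in foot shock and 117 UMIs in control. MHb-like neurons had 84.6 CPM (77.2 to 92.6) in foot shock and 87.7 CPM (79.7 to 96.2) in control, from 473 UMIs in foot shock and 442 UMIs in control. LHb-like neurons therefore stood at 0.485 times (0.396 to 0.590) the MHb-like level in foot shock and at 0.321 times (0.260 to 0.394) in control. Without the LHb-like clusters under a Pou4f1 minimum of 2 per 10000 UMIs the foot shock ratio was 0.597, and at cluster resolution 2.0 it was 0.591. It was 0.511 with doublets kept, 0.521 with at least 2000 UMIs per cell, 0.522 without the clusters led by Pam or Clasp2 and 0.543 with classes from marker genes per cell. All 6 values are short of 2-fold, and over all alternatives the foot shock ratio ran between 0.434 and 0.597. Free RNA had 8.81 CPM in foot shock and 10.3 CPM in control. Thalamus-like and other neurons had few Htr5b UMIs, with 1 UMI in thalamus-like and 2 UMIs in other neurons of foot shock and 0 UMIs in both of control. Other neurons were at 0.0615 times (0.00737 to 0.227) the LHb-like level in foot shock. In control their 0 UMIs gave an interval of 0 to 0.0980 times.

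Within the MHb, Htr5b varied by 8.18-fold in foot shock and 8.43-fold in control between the highest and the lowest cluster. At the top were the Spon1 and Sema3d cluster with 162 CPM (133 to 196) in foot shock and 147 CPM (120 to 178) in control, the Calcrl and Syt15 cluster with 133 CPM (114 to 155) in foot shock and 146 CPM (123 to 173) in control, and the Pam and Abhd2 cluster with 123 CPM in foot shock and 143 CPM in control. Their intervals overlapped in both libraries. The Lmo1 and Wscd1 cluster had 108 CPM in foot shock and 70.7 CPM in control and the Clasp2 and Pim1 cluster 85.1 CPM in foot shock and 28.5 CPM in control. The Cck and Adcyap1 cluster stood lower with 40.2 CPM in foot shock and 48.8 CPM in control, as did the Synpr and Fgf1 cluster with 40.5 CPM in foot shock and 52.2 CPM in control. The Prox1 and Smoc1 cluster was lowest in both libraries, with 19.8 CPM (11.3 to 32.2) in foot shock and 17.4 CPM (8.71 to 31.2) in control. In control the intervals of the 3 top clusters lay apart from the next one, whereas in foot shock all neighbours overlapped.

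Htr5b was uneven among the LHb-like clusters. The Chrm2 and Sv2c cluster had 73.0 CPM in foot shock and 56.1 CPM in control, the Sst and Mctp1 cluster 73.0 CPM in foot shock and 67.4 CPM in control, the Peg10 and Tmem255a cluster 66.5 CPM in foot shock and 47.3 CPM in control, and the Rorb and Rasgrf2 cluster 45.8 CPM in foot shock and 27.4 CPM in control. The Ret and Cxcl13 cluster had 24.1 CPM in foot shock and 34.7 CPM in control and the Pam and Clasp2 cluster 18 CPM in foot shock and 38.9 CPM in control. The Megf11 and Cbln1 and the Ddc and Plch1 clusters each had 0 UMIs in foot shock and 1 in control, and the Lypd1 and Fam19a1 cluster had 0 in both. These 3 clusters are those in which Htr1b was highest among LHb-like clusters with at least 50 cells in each library. In foot shock the Lypd1 and Fam19a1 interval (0 to 22.7) overlapped those of Ret and Cxcl13 (9.69 to 49.7) and Pam and Clasp2 (4.92 to 46.2). In control it (0 to 15.2) lay below theirs, 17.9 to 60.6 for Ret and Cxcl13 and 17.8 to 73.9 for Pam and Clasp2.

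Cells with a Htr5b UMI made up 12.6% (10.4 to 15) of foot shock and 9.01% (7.27 to 11) of control LHb-like cells, and 23.7% (21.6 to 25.8) of foot shock and 27.3% (24.9 to 29.9) of control MHb-like cells. After thinning to 1000 UMIs the shares were 3.75% of foot shock and 2.14% of control LHb-like cells and 8.36% of foot shock and 8.26% of control MHb-like cells. The share in oligodendrocyte-like cells was 0.118% in foot shock and 0.276% in control. No cell held more than 4 Htr5b UMIs.

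Htr4, the Gs-coupled member, lies at chr18:62324204-62496577 on the plus strand and was present at low levels in both parts of the habenula. LHb-like neurons had 8.01 CPM (5.18 to 11.8) in foot shock and 4.57 CPM (2.75 to 7.14) in control, from 25 UMIs in foot shock and 19 UMIs in control. MHb-like neurons had 10.2 CPM (7.72 to 13.2) in foot shock and 13.5 CPM (10.5 to 17.1) in control, from 57 UMIs in foot shock and 68 UMIs in control. The LHb-like level was 0.786 times (0.470 to 1.28) that of MHb-like neurons in foot shock, an interval that holds 1, and 0.339 times (0.192 to 0.570) in control, where it ran between 0.305 and 0.522 over the alternatives and was short of 2-fold at 0.522, with classes from marker genes per cell. Free RNA had 3.11 CPM in foot shock and 1.39 CPM in control. Thalamus-like neurons had 0 UMIs in both libraries, and other neurons 0 UMIs in foot shock and 6 UMIs in control, at 4.42 CPM (1.62 to 9.61).

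Of the 17 clusters, the Calcrl and Syt15 cluster of the MHb had the highest Htr4 level in both libraries. It had 26.2 CPM (18 to 36.8) in foot shock and 31.8 CPM (21.4 to 45.3) in control, and held 33 of the 57 foot shock and 30 of the 68 control MHb-like Htr4 UMIs. The Pam and Abhd2 cluster followed with 23.4 CPM in foot shock and 15.3 CPM in control, from 8 UMIs in each library. Lowest of the MHb-like clusters was the Prox1 and Smoc1 cluster with 1.24 CPM in foot shock and 3.17 CPM in control, from 1 UMI in foot shock and 2 UMIs in control. In the LHb the Chrm2 and Sv2c cluster had 10.8 CPM in foot shock and 9.35 CPM in control from 8 UMIs in each library, and no other LHb-like cluster passed 5 UMIs in either. As with Htr1b, no neighbours in the order of the 17 clusters had intervals apart.

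**Figure D4:**
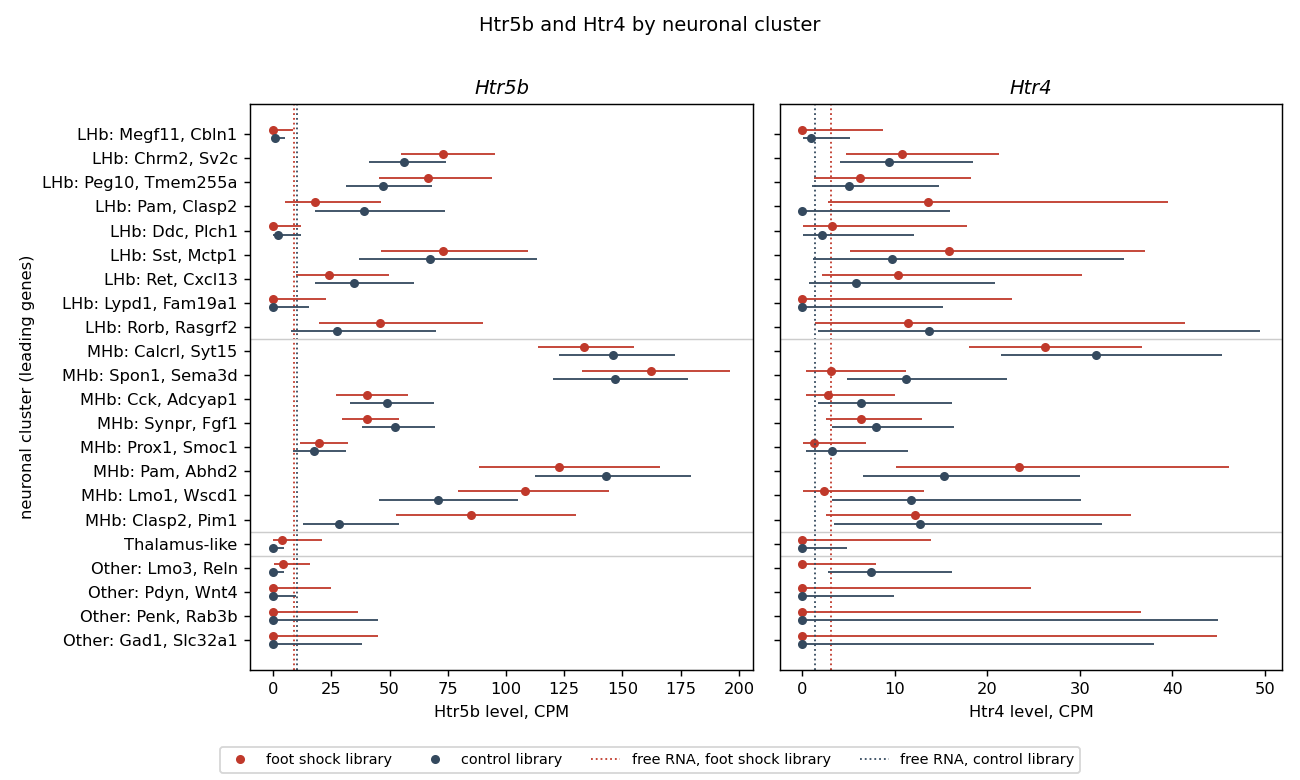
Htr5b on the left and Htr4 on the right, in CPM with exact 95% Poisson intervals, foot shock in red above control in dark blue-grey; dotted lines give free RNA. Htr5b lies between 17.4 and 162 CPM in MHb-like clusters and near 0 in 3 LHb-like clusters and in thalamus-like and other neurons. Htr4 peaks in the Calcrl and Syt15 cluster.

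The 8 other serotonin receptor genes filled different places. Htr7, which is Gs-coupled, had 11.5 CPM in foot shock and 15.6 CPM in control in LHb-like neurons, against 1.43 CPM in foot shock and 2.18 CPM in control in MHb-like neurons, a ratio of 8.06 (3.68 to 20.1) in foot shock and 7.17 (3.75 to 15.1) in control. Its highest levels were outside the habenula classes, at 80.5 CPM in foot shock and 70.1 CPM in control in the Pdyn and Wnt4 cluster and 37.7 CPM in foot shock and 69.0 CPM in control in thalamus-like neurons. Htr5a, the relative of Htr5b, had 5.13 CPM in foot shock and 7.22 CPM in control in LHb-like neurons, against 11.8 CPM in foot shock and 12.7 CPM in control in MHb-like neurons. Among MHb-like clusters with at least 50 cells in each library it was highest in the Synpr and Fgf1 cluster, at 23.4 CPM (15.3 to 34.3) in foot shock and 32.9 CPM (22.1 to 47.3) in control, where Htr5b was low. Htr1f was found in the Pdyn and Wnt4 cluster at 67.1 CPM (32.2 to 123) in foot shock and 113 CPM (81.6 to 153) in control, from 10 UMIs in foot shock and 42 UMIs in control, and at 0 UMIs in MHb-like neurons. Htr1d had 6 UMIs in all kept foot shock cells and 20 in control cells, Htr3a 9 in foot shock and 5 in control, Htr6 5 in foot shock and 1 in control, Htr3b 0 in foot shock and 2 in control, and Htr2b 0 in both.

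Detection of the receptors in the same cell followed the clusters. Of the LHb-like cells with a Htr5b UMI, 80.2% (71.3 to 87.3) in foot shock and 89.5% (81.1 to 95.1) in control also had a Htr2c UMI, while 56.2% of all foot shock and 52.3% of all control LHb-like cells did. The cells with Htr5b were deeper, with medians of 4469 UMIs in foot shock and 6266 UMIs in control, against 3632 UMIs in foot shock and 4326 UMIs in control for all LHb-like cells. In the Chrm2 and Sv2c cluster alone, 90.2% of foot shock and 97.1% of control cells with Htr5b also had Htr2c, beside 87.0% of all its foot shock cells and 88.4% of all its control cells. Of the LHb-like cells with a Htr1b UMI, 33.3% (14.6 to 57.0) in foot shock and 25.0% (13.6 to 39.6) in control had Htr2c. Among these Htr1b cells, 0 of 21 in foot shock and 0 of 48 in control had Htr5b, which allows shares of up to 16.1% in foot shock and 7.40% in control. Htr5b was found in 12.6% of all foot shock and 9.01% of all control LHb-like cells, so the foot shock count could not show a difference, while the control limit lay below the share of all cells. Of the 48 control cells, however, 35 lay in the Megf11 and Cbln1 cluster, where Htr5b was found in 0.376% of all 266 cells. The control count therefore does not show that Htr1b and Htr5b part within a cluster. In the MHb, 35.8% (23.1 to 50.2) of foot shock and 46.8% (34.0 to 59.9) of control cells with a Htr4 UMI also had Htr5b, which was found in 23.7% of all foot shock and 27.3% of all control MHb-like cells. Cells with Htr4 were deeper, with medians of 4039 UMIs in foot shock and 4675.5 UMIs in control, against 3463 UMIs in foot shock and 4224.5 UMIs in control for all MHb-like cells. In the Calcrl and Syt15 cluster alone, Htr5b was found in 44.8% (26.4 to 64.3) of foot shock and 63.0% (42.4 to 80.6) of control cells with Htr4, beside 42.2% of all its foot shock cells and 47.3% of all its control cells. No UMI of any of the 6 receptors was found in 38.3% of foot shock and 42.5% of control LHb-like cells and in 72.5% of foot shock and 68.0% of control MHb-like cells.

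Set side by side within LHb-like neurons, the foot shock and control libraries gave a ratio of 1.05 (0.982 to 1.12) for Htr2c. The ratio was 1.46 (1.13 to 1.89) for Htr5b, 0.574 (0.344 to 0.932) for Htr1b and 1.75 (0.927 to 3.37) for Htr4. With 1.5-fold as the limit, Htr4 was past it as higher, as were 3.56% of 11626 genes, and Htr1b as lower, as were 6.11%. The interval for Htr4 held 1, and its ratio ran between 1.37 and 1.88 over the alternatives, with 1.40 under classes from marker genes per cell. With the same mix of clusters in both libraries the ratios were 0.916 for Htr2c, 1.16 for Htr5b, 0.808 for Htr1b and 1.37 for Htr4, none of the 4 past 1.5-fold. The mix of clusters also differed between the libraries. The Megf11 and Cbln1 cluster, which is rich in Htr1b and poor in Htr5b, made up 14.8% of LHb-like cells in foot shock and 27.9% in control. The cause of these shifts was not tested. Without the LHb-like clusters of lowest Pou4f1, the Megf11 and Cbln1 and the Lypd1 and Fam19a1 clusters, the ratio was 0.948 for Htr1b and 0.886 for Htr2c, and at cluster resolution 2.0 it was 0.886 for Htr1b. With classes from marker genes per cell the Htr1b ratio was 0.672, just short of 1.5-fold. The ratio of Htr5b passed 1.5-fold under some alternatives and ran between 1.16 and 1.74. Within the Megf11 and Cbln1 cluster the Htr1b ratio was 0.664 (0.308 to 1.31), past 1.5-fold as lower with 1 in its interval.

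In MHb-like neurons the ratio of foot shock to control was 0.965 (0.846 to 1.10) for Htr5b, 1.09 (0.715 to 1.66) for Htr2c and 0.756 (0.522 to 1.09) for Htr4. With doublets kept the Htr2c ratio was 0.721, on the other side of 1. Of these 3 receptors, 0 were past 1.5-fold, beside 3.05% of 11753 genes past it as higher and 4.72% as lower. In thalamus-like neurons Htr2c gave 1.22 (0.926 to 1.58) and Htr1b 1.86 (0.711 to 4.62). Htr1b was past the limit as higher there with 1 in its interval, as were 7.42% of 7267 genes, while 14.7% were past it as lower. In other neurons Htr2c gave 1.07 (0.885 to 1.29) and Htr1b 0.923 (0.516 to 1.61), both within it. Of 9500 genes there, 5.23% were past it as higher and 11.3% as lower.

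Cluster by cluster, 21 ratios of a receptor between the libraries could be read in 16 clusters, and 5 were past 1.5-fold. Over all genes tested, 18.3% were past that limit in these clusters together, and between 12.9% and 23.8% in single clusters. Htr2c was higher in the foot shock cells of the Megf11 and Cbln1 cluster, at 1.58 (1.09 to 2.26), where 6.5% of genes were past the limit as higher and 12.5% as lower. It was lower in those of the Ddc and Plch1 cluster, at 0.549 (0.324 to 0.898), as were 12.3% of genes. The part of free RNA, whose levels and shares are given above, in these ratios was not tested. Its level in the Chrm2 and Sv2c cluster was 0.880 times (0.792 to 0.978) that of control. Htr5b was higher in the foot shock cells of the Clasp2 and Pim1 cluster, at 2.99 (1.31 to 7.40) from 21 UMIs in foot shock and 9 UMIs in control, as were 10.6% of genes, and of the Lmo1 and Wscd1 cluster, at 1.53 (0.914 to 2.62), as were 9.15%. In the MHb-like clusters with most Htr5b its ratios were 1.10 (0.834 to 1.46) for Spon1 and Sema3d, 0.912 (0.724 to 1.15) for Calcrl and Syt15, and 0.860 (0.575 to 1.27) for Pam and Abhd2, each with 1 in its interval. The Clasp2 and Pim1 cells were also of unequal depth, with medians of 2283 UMIs in foot shock and 4538 in control, and the part of depth was not tested.

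**Figure D5:**
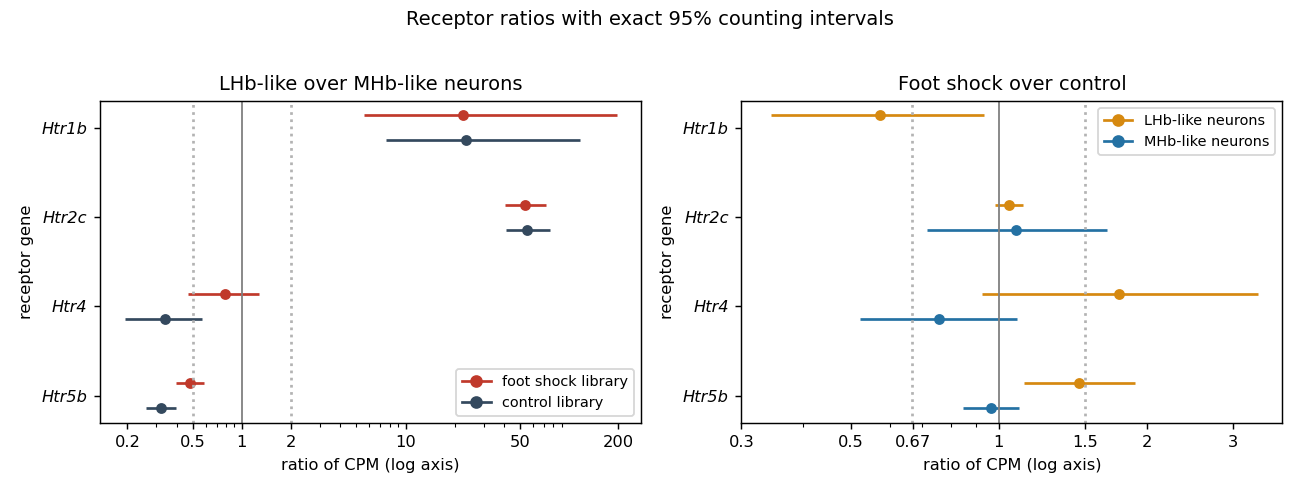
Ratios of receptor levels with exact 95% counting intervals on log axes. The left panel gives LHb-like over MHb-like neurons in the foot shock (red) and control (dark blue-grey) libraries, and the right panel foot shock over control in LHb-like (orange) and MHb-like (blue) neurons; dotted lines mark 2-fold and 1.5-fold. Htr2c and Htr1b lie far right of 1 in the left panel, and the foot shock over control ratio of Htr2c lies near 1.

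Levels over the clusters were much alike in both libraries for Htr2c, Htr1b and Htr5b. Over the 17 clusters, the correlation between the foot shock and the control library of log2(CPM + 10) was 0.985 for Htr2c, 0.951 for Htr1b, 0.944 for Htr5b, 0.664 for Htr1a and 0.646 for Htr4, and Htr2a gave no value. These clusters come from a joint clustering of both libraries, and low counts limit the Htr4 and Htr1a values. Among 8657 genes, those whose level over the 17 clusters was most like that of Htr2c were Adgrl2, a latrophilin (r of 0.943 in foot shock and 0.956 in control), Kcnip4 (0.934 in foot shock and 0.917 in control) and Lingo2 (0.915 in foot shock and 0.930 in control). For Htr5b they were Pbx3 (0.919 in foot shock and 0.938 in control), Nppa (0.914 in foot shock and 0.893 in control) and Tspan13 (0.927 in foot shock and 0.885 in control). For Htr1b they were the calcium channel subunit gene Cacna2d1 (0.965 in foot shock and 0.951 in control), 2900055J20Rik (0.963 in foot shock and 0.933 in control) and Rph3a (0.951 in foot shock and 0.929 in control). For Htr4 they were Snapin, Rap1b and Acly, with r between 0.643 and 0.751. Of these genes, Adgrl2, Pbx3 and the 3 genes named for Htr4 had not been used for clustering. Pou4f1 gave -0.890 in foot shock and -0.846 in control with Htr1b, and 0.683 in foot shock and 0.748 in control with Htr5b, but it also set which clusters were named LHb-like. The clusters share their library and its depth, and these values describe likeness alone.

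Genes that make, clear or relay the serotonin signal were read in the same comparison of LHb-like with MHb-like neurons. Over all genes tested the median log2 ratio was 0.13 in foot shock and 0.15 in control. At least 2-fold higher were 11.6% of them in foot shock and 12.5% in control, and at least 2-fold lower 6.46% in foot shock and 6.7% in control. Of 12 genes that handle serotonin, 4 could be read, with a median of 1.58 in foot shock and 0.99 in control, and Ddc and Maob were at least 2-fold higher in both libraries. Ddc, the decarboxylase that makes serotonin and dopamine, stood at 11.7 times the MHb-like level in foot shock and 18.1 times in control, and Maob, a monoamine oxidase, at 3.22 times in foot shock and 2.03 times in control. Of 12 genes of Gi/o transduction all could be read, with medians of 0.10 in foot shock and 0.45 in control. Kcnj3, which encodes a potassium channel subunit opened by Gi/o receptors, was higher at 15.6 times in foot shock and 17.7 times in control, Kcnj5 at 5.97 times (2.31 to 18.2) in foot shock and 18.8 times (4.78 to 162) in control, from 6 MHb-like UMIs in foot shock and 2 in control, and the Gi subunit gene Gnai1 at 4.38 times in foot shock and 3.87 times in control.

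Of 15 genes of Gq transduction, 10 could be read in foot shock and 11 in control, with medians of 0.69 in foot shock and 0.66 in control. Those at least 2-fold higher in both libraries were Gnaq, the Gq subunit gene, at 3.30 times in foot shock and 3.17 times in control, the phospholipase C gene Plcb1 at 9.85 times in foot shock and 7.49 times in control, and the channel gene Trpc5 at 14.9 times (4.55 to 77.2) in foot shock and 16.7 times (6.84 to 53.2) in control, from 3 MHb-like UMIs in foot shock and 5 in control. The shares of all genes past these limits are those given above. Of the 12 genes of Gs transduction all could be read, with medians of 0.85 in foot shock and 0.68 in control. Among adenylyl cyclase genes, Adcy1 was higher at 129 times (22.4 to 5163) in foot shock and 50.1 times (16.8 to 246) in control, from 1 MHb-like UMI in foot shock and 3 in control. Adcy5 was higher at 15.4 times in foot shock and 27.5 times in control. Adcy2 was higher at 4.69 times in foot shock and 3.85 times in control and Adcy3 at 3.26 times in foot shock and 2.67 times in control. Rapgef3 was higher at 7.33 times in foot shock and 4.14 times in control and Rapgef4 lower at 0.119 times in foot shock and 0.147 times in control, both encoding exchange factors that bind cyclic AMP. The 11 names listed for receptor partners and RNA editing include Grk2 and Adrbk1, which are names of the same gene. All genes of the list, 10 in number, could be read, with medians of -0.09 in foot shock and -0.11 in control. S100a10, whose protein binds the 1B and 4 receptors, was higher at 7.52 times (2.76 to 25.5) in foot shock and 10.9 times (2.61 to 97.0) in control, from 5 MHb-like UMIs in foot shock and 2 in control. Mpdz, whose protein binds the 2C receptor, was lower at 0.413 times in foot shock and 0.440 times in control, and so was Adarb2, a relative of the RNA-editing adenosine deaminases, at 0.384 times in foot shock and 0.194 times in control.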

How the data were processed

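The libraries were made with droplet 3' version 2 chemistry. The deposited values are raw counts of unique molecular identifiers (UMIs) for each gene and barcode, made with Cell Ranger 2 on mm10 per the submitters' processing notes, with the annotation release not stated there. Of 28692 gene identifiers, 28416 were found in GENCODE vM21, which gave positions.

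The receptors and gene lists were chosen with earlier results of these data known. Cells had at least 1000 UMIs, 500 to 6000 genes and at most 20% mitochondrial UMIs, which gave 4840 foot shock and 5129 control cells. Scrublet in scanpy 1.11.5 (expected rate 0.08) removed 80 foot shock and 242 control cells as predicted doublets. Both libraries were clustered together with Leiden (2000 variable genes, 30 components, 15 neighbours, resolution 1.0) into 26 clusters. A cluster was named when it held at least 3 markers of a type. Clusters led by markers of another class, with 74 foot shock and 11 control cells, were left out. LHb-like and MHb-like cells were clustered again, and LHb-like subclusters with Pou4f1 under 1 per 10000 UMIs became other neurons. The rule on mixed clusters and this threshold for subclusters were set after the clusters were seen. Kept cells of the libraries shared 32 barcodes. Free RNA was not subtracted.

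Counts were summed per class and library and scaled to counts per 1000000 (CPM). Levels carry exact Poisson intervals, shares exact Clopper-Pearson intervals and ratios exact conditional binomial intervals, which cover counting error only. Ratios were read with at least 20 UMIs over both sums, and differences were marked at 2-fold between classes and at 1.5-fold between libraries, with no p-value. Cells are not replicates, and the mice of a pool cannot be told apart. By the naming rule all serotonin receptors were named, list genes past the fold in both libraries (at most 5 per list and direction), and the 3 genes most like each receptor, by the lower of both libraries' Pearson correlations among genes with at least 100 UMIs. The ratio intervals were run on simulated Poisson counts without variation between cells, mice or libraries, which checks the calculation alone. edgeR 4.0.16 gave TMM factors for an alternative scaling of the counts.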

Additional observations from a re-analysis of the deposited data

How the results depend on the processing

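Of 16 alternatives for the ratios, 13 were fixed at the start and 3 added after the data were seen. Over 15 receptor ratios, 13 values lay outside the interval of the reported ratio, and 0 on the other side of 1 for a ratio past its limit. The filters on low counts cannot change a receptor's ratio, nor can the Pou4f1 minimum change one between libraries in MHb-like neurons, so those settings say nothing of stability. The intervals of Htr1b and Htr4 are wide, and their values inside them that moved by over 1.5 times or lost a limit are given with their levels. Classes taken from marker genes per cell gave LHb over MHb ratios for Htr2c of 6.04 in foot shock and 6.37 in control. Free RNA subtraction gave 84.8 for Htr2c in foot shock, and keeping doublets 29.5 in control. For Htr5b the LHb over MHb ratio was 0.591 in foot shock and 0.446 in control at cluster resolution 2.0, 0.597 in foot shock and 0.466 in control with a Pou4f1 minimum of 2 per 10000, and 0.254 in control as a mean over cells. For foot shock over control in LHb-like neurons, the Pou4f1 minimum of 2 gave 0.948 for Htr1b and 0.886 for Htr2c. Resolution 2.0 gave 0.919 for Htr2c. The same mix of clusters in both libraries, weighted by their control UMIs, gave 0.916 for Htr2c. The cause of these changes was not tested. TMM scaling shifted the log2 ratio of LHb over MHb by -0.13 in foot shock and -0.15 in control.

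Genes past the limit numbered 2127 for LHb over MHb in foot shock (5542 with no filter, 1100 with at least 100 UMIs) and 2295 in control (5784 and 1259). For foot shock over control they numbered 1124 in LHb-like neurons (4867 and 275) and 913 in MHb-like neurons (4522 and 201). Ratios of Htr1b and Htr4, and of Htr2c between libraries in MHb-like neurons, had no value under the minimum of 100 UMIs, except that of Htr4 between libraries in MHb-like neurons. With Spearman correlations Adgrl2, Pbx3 and Snapin ranked 5, 1 and 1 among genes like Htr2c, Htr5b and Htr4, while Cacna2d1 ranked 14 for Htr1b. The other named genes were less stable. By Spearman, Lingo2 ranked 42 and Kcnip4 122 for Htr2c, and Nppa 7 and Tspan13 8 for Htr5b. Rph3a ranked 20 and 2900055J20Rik 98 for Htr1b, and Acly 14 and Rap1b 25 for Htr4. With log2(CPM + 1), Kcnip4 ranked 22, 2900055J20Rik 25 and Acly 59. No paired analysis was possible because each group is 1 library. Depth limits Htr1a and Htr2a, and most single clusters for Htr1b and Htr4.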
